A study of Mus musculus with 12 samples.

Results

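The 66 array probes described here were those whose signal was at least 1.5-fold lower in 2 BAF250b-/- mouse embryonic stem (ES) cell clones than in the study's wild-type line, at each of 2 times after passaging. They were chosen from a deposited table of expression values with 25674 rows, of which they make up 0.257%. The array itself carries 42006 probes of 60 bases. After conversion of the table to log2, a row was kept if the mean of clone 4 minus wild type and the mean of clone 7 minus wild type were each at or below -0.585 at 18 h and again at 72 h. The choice therefore fixed the direction and the minimum size of the knockout difference, and that difference is described below without being tested.

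The wild-type (WT) line is labelled #3 and the knockout (KO) clones #4 and #7, so the KO genotype is represented by 2 lines and the WT genotype by 1. An effect of genotype therefore cannot be told apart from a trait particular to the WT line. All lines carry the same strain label, hybrid of B6,129 and CD1, and the stage label 3.5 dpc blastocysts. Cells were harvested 18 h or 72 h after passage. Total RNA of every line and time went onto 2 arrays, which makes 6 groups and 12 arrays. Each array was hybridised with sample RNA in Cy3 and with RNA pooled from 11 mouse cell lines in Cy5, and no dyes were swapped. The labels give the same culture letter, A, to the pair of WT arrays at 18 h, so the spread between arrays may be partly technical, and the p-values measure only that spread. Values are log2 ratios of sample over reference pool, where 0 means equal signal and 1 means 2-fold more in the sample. KO values are listed with the pair of clone 4 arrays first and the pair of clone 7 arrays second. Differences carry the standard error of the limma fit, and a change is called at an adjusted p below 0.05 over all probes.

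BAF250b, also known as ARID1B, is a subunit of SWI/SNF (BAF) complexes, which use the energy of ATP to move or eject nucleosomes. It carries an AT-rich interaction domain that binds DNA, and it takes the place in the complex that its relative BAF250a (ARID1A) takes in other assemblies. SWI/SNF complexes in ES cells help to hold the pluripotent state, in which a cell renews itself and can still form all embryonic lineages. Probe names were not paired with gene symbols in the files, and 0 of the 66 probe sequences shared a run of 25 bases with a RefSeq promoter window or miRNA, so each is called by its probe name. The transcript of the targeted gene, the SWI/SNF subunits and the markers of ES and other cell types were not analysed here for that reason.

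Some members share sequence with each other or with other probes of the array, and these are printed first. Z00030955-1 overlaps Z00030887-1 and shares a shorter run with Z00030689-1, so the 3 are not treated as independent measurements. Capitals mark the run of 38 bases that the first pair share, and in the third the run of 17 bases that it shares with Z00030955-1, all written 5′ to 3′.
Z00030955-1: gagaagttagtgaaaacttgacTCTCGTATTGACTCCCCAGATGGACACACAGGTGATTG
Z00030887-1: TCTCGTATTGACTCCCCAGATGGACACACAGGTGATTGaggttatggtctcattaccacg
Z00030689-1: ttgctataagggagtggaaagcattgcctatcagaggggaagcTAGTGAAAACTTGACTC

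Z00033089-1 is shown because a run of 14 bases, in capitals, occurs 2 times within it. The same run occurs 2 times in Z00033250-1, a probe that is on the array but is no row of the deposited table and so could not be chosen.
Z00033089-1: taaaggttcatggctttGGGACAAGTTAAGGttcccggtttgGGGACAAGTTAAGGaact
Z00033250-1: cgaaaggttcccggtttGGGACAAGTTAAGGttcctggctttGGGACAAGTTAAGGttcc

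Z00055606-1 is shown because a stretch of it, in capitals, is shared with a probe that was not lower in KO, described below. Z00017070-1 is shown as one of the members with the lowest values that shares no run of 20 bases with any other probe.
Z00055606-1: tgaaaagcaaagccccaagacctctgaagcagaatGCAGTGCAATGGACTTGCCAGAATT
Z00017070-1: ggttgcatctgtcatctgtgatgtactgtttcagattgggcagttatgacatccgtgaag

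Some members carry a polyadenylation hexamer, the short signal that lies just upstream of the cleavage site of many mRNAs. AATAAA, the common form, read on the probe's strand, was found in 9 of 66 members (13.6%), compared with 6.75% of all probes on the array and 7.5% of the table's rows. The variant ATTAAA was found in 3 members (4.55%), against 3.2% of all probes and 3.45% of the table's rows. Either form was present in 11 members (16.7%), in 9.73% of all probes and in 10.7% of the table's rows, with Z00031583-1 carrying both. A match says only that these letters are in the probe. The stretches of 30 bases around the hexamer, which is in capitals, are given for 4 of the members described below.
Z00026083-1: gctaagagacatgatctttgctcATTAAAg
Z00025186-1: gttgtgtatagcagaAATAAAgcttcctta
Z00064108-1: taaatggacacaAATAAAgccaatatattt
Z00031583-1: cagatatcattaAATAAActcttgtatact

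The members were richer in A and T than the array as a whole. Their median GC content was 40.0%, with a range from 28.3% to 61.7%, and the median over all probes was 43.3%. A run of at least 20 bases shared with another probe, on either strand, was found for 5 members (7.58%). The share was 5.04% of all probes and 3.61% of the table's rows.

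In the deposited table, the median member was at -0.83 (clone 4 minus WT) and -0.93 (clone 7 minus WT) on the log2 scale at 18 h. At 72 h the medians were -1.28 in clone 4 and -1.41 in clone 7. The lowest single values were -2.76, -2.97, -2.87 and -2.86 in the same order, all from Z00026083-1. In 16 members all 4 differences were at least 2-fold. Just inside the threshold lay Z00006435-1, whose highest difference was -0.59, Z00056228-1 (-0.594) and Z00005867-1 (-0.598). Just outside it lay Z00035520-1 (-0.583), Z00024721-1 (-0.582) and Z00005718-1 (-0.581), so the nearest rows on either side differ by less than the spread between arrays.

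Values remade from the scanner files gave the same picture of the chosen set. All 66 members were called lower in KO at 18 h and all 66 at 72 h by limma, where 7.27% and 18.1% of all probes were called lower. In all 66, the 4 KO arrays lay below every unflagged WT array at each time. That held for 20% of all probes at 18 h and 23.9% at 72 h. For Z00054870-1 at 18 h the comparison was with the first WT array only, as its spot on the second was flagged. Because the rule used these contrasts, nothing is read from those counts. Over the members the difference ran from -2.21 to -0.58 at 18 h and from -2.53 to -0.58 at 72 h. Its median was -0.82 at 18 h and -1.21 at 72 h, with the medians over all probes at -0.01 at both times. Without background correction of the intensities (normexp otherwise), all 66 were again called lower at each time, with differences from -2.14 to -0.18 at 18 h and from -2.30 to -0.16 at 72 h and medians of -0.64 and -0.75. In 24 members at 18 h and 36 at 72 h the difference was over 1.5 times as large with the correction as without, so the sizes below depend on it. The replicate arrays of a group differed by a median of 0.053 to 0.089 over the members, depending on the group. The widest gap between replicate arrays was 0.578, for Z00012210-1 in clone 7 at 72 h.

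The members with the lowest differences fell into those that were low already at 18 h and those that were lower still at 72 h. Z00026083-1 read 2.05 and 1.92 in WT at 18 h and 1.96 and 1.81 at 72 h. In KO the values were -0.16, -0.17, -0.14 and -0.19 at 18 h and -0.16, -0.19, -0.11 and -0.15 at 72 h. The KO arrays were thus nearly equal to one another and far below WT. Its fluorescence in the sample channel was between 402.9 and 415.9 intensity units on the 8 KO arrays, at or below the 95th percentile of negative controls on each of them. On the 4 WT arrays it was between 539.6 and 602. The reference channel was dim too, at 367.8 to 400.9, and the size of the difference moved with the treatment of background. At 18 h it was -2.15 ± 0.05 after normexp, -0.62 without background correction and -3.27 in the deposited log ratio, and it was called lower in each.

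Z00033089-1, the probe with the repeated run, read 2.45 and 2.32 in WT at 18 h and 2.45 and 2.42 at 72 h. The 4 KO arrays read 0.35, 0.28, 0.08 and 0.01 at 18 h and 0.40, 0.21, -0.10 and -0.34 at 72 h. Every KO array was far below every WT array, and clone 7 lay below clone 4 at both times. The related probe Z00033250-1, which took no part in the choice, read 2.70 and 2.60 in WT at 18 h and 2.71 and 2.63 at 72 h. It read 0.54, 0.46, 0.29 and 0.23 in KO at 18 h and 0.49, 0.32, 0.03 and -0.11 at 72 h. Its KO minus WT difference was -2.27 ± 0.06 at 18 h and -2.49 ± 0.06 at 72 h, and it shares 25 bases with Z00033089-1, so the pair are not independent measurements. Probes of the opposite strand that share 20 and 23 bases with Z00033089-1 differed less. Z00032684-1 was at -0.35 ± 0.06 and -0.37 ± 0.06, and Z00033379-1 at -0.21 ± 0.10 and -0.30 ± 0.10.

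Z00017070-1 read -0.14 and -0.08 in WT at 18 h and -0.45 and -0.42 at 72 h. KO values were -2.06, -2.02, -1.97 and -2.24 at 18 h and -2.17, -2.24, -2.29 and -2.50 at 72 h. Its difference was -1.97 ± 0.08 at 18 h and -1.87 ± 0.08 at 72 h, which is close to 4-fold at either time. Without background correction it was -1.05 and -0.91, close to 2-fold, and was still called lower at each. Z00068002-1 read 0.02 and 0.03 in WT at 18 h and -0.04 and 0.03 at 72 h. Both clones together gave -1.63, -1.80, -1.63 and -1.84 at 18 h and -1.37, -1.21, -1.17 and -1.56 at 72 h. Here the KO lines rose by 0.40 ± 0.09 from 18 h to 72 h (limma adjusted p = 0.00479, higher in both clones). The difference from WT was -1.75 ± 0.11 at 18 h and -1.32 ± 0.11 at 72 h. Its change of 0.43 ± 0.15 was not called (limma adjusted p = 0.0731), and it was 0.25 without background correction.

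In Z00025186-1 the knockout difference was large at 18 h and wider at 72 h. The probe read 0.86 and 0.96 in WT at 18 h and 0.84 and 0.91 at 72 h. On the KO arrays it read -1.16, -1.10, -1.02 and -0.99 at 18 h and -1.79, -1.78, -1.59 and -1.46 at 72 h. Without background correction the difference at 72 h was -1.65, against -2.53 with it, and its widening -0.26 against -0.56. The WT change of -0.03 ± 0.06 did not pass the test, while the KO lines fell by 0.59 ± 0.04 (limma adjusted p = 1.35e-06, lower at 72 h in both clones). Z00023947-1 showed the same order of values. It read 0.74 and 0.76 in WT at 18 h and 0.76 and 0.76 at 72 h. The KO clones read -0.66, -0.73, -0.42 and -0.50 at 18 h and -1.25, -1.19, -1.27 and -1.19 at 72 h. The WT change was 0.01 ± 0.05, and KO fell by 0.65 ± 0.03.

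Z00012210-1 read 2.84 and 2.73 in WT at 18 h and 2.66 and 2.75 at 72 h. Clones 4 and 7 read 1.76, 1.80, 1.84 and 1.87 at 18 h and 0.76, 0.60, 0.88 and 0.30 at 72 h. The last value, from the second clone 7 array at 72 h, is 0.58 below its replicate, and the difference at 72 h was -2.07 ± 0.13 against -0.97 ± 0.13 at 18 h. Z00008512-1 read -1.21 and -1.24 in WT at 18 h and -0.99 and -1.08 at 72 h. In KO the values were -2.10, -2.34, -2.15 and -2.41 at 18 h and -2.74, -2.63, -2.93 and -2.95 at 72 h. Its signal was below the reference pool on all 12 arrays, and the KO minus WT difference was -1.02 ± 0.08 and then -1.78 ± 0.08. Without background correction it was -0.40 and then -0.60, and its widening, -0.76 with the correction, was -0.21 and no longer called (limma adjusted p = 0.31). Z00054944-1 read 0.71 and 0.57 in WT at 18 h and 0.21 and 0.28 at 72 h. The 4 KO arrays read -0.34, -0.41, -0.61 and -0.70 at 18 h and -1.11, -1.29, -1.34 and -1.40 at 72 h. It was lower at 72 h than at 18 h in all 3 lines, with its signal at 72 h at or below the 95th percentile of negative controls on 1 KO array. Its difference was -1.15 at 18 h and -1.53 at 72 h, and -0.53 at both times without background correction. The widening of its difference (-0.38 ± 0.09) was then -0.01 and not called (limma adjusted p = 0.967), and with median centring it was -0.26 and not called (limma adjusted p = 0.0834). It was also lost without the second WT array at 18 h (-0.31) or the second WT array at 72 h (-0.35).

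Many members were above the reference pool in WT. The rule required WT to be above both clones, so it used these WT values, and the shares that follow describe the members and support nothing. The median log2 ratio of the members in WT was 0.58, and 25 of 66 (37.9%) were at least 2-fold above the pool, compared with 8.63% of all probes and 10.5% of the table's rows. At least 2-fold below the pool were 11 members (16.7%), against 4.67% of all probes. In KO the median was -0.35, with 8 members at least 2-fold above and 19 at least 2-fold below. Since no dyes were swapped, a dye effect of a probe stays in this ratio, although it cancels between groups.

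The members furthest above the pool in WT were still well above it in KO. Z00013548-1 read 4.71 and 4.67 in WT at 18 h and 4.44 and 4.33 at 72 h. KO values were 3.90, 4.03, 3.76 and 3.77 at 18 h and 2.84, 2.57, 2.41 and 2.53 at 72 h. KO fell by 1.28 ± 0.06 with time, and the WT change of -0.31 ± 0.09 did not pass the test. Z00000953-1 read 3.94 and 3.78 in WT at 18 h and 4.25 and 4.21 at 72 h. Both clones together gave 3.15, 3.33, 3.10 and 3.40 at 18 h and 2.60, 2.51, 2.64 and 2.89 at 72 h. KO fell by 0.58 ± 0.08 with time here too, while the WT change of 0.37 ± 0.12 did not pass the test. The reference channel of Z00000953-1 was dim, at 400.2 to 433.1 intensity units. Its sample channel read 1366.7 to 1640.7 in WT, a smaller ratio in uncorrected intensities than the log2 values above. The KO minus WT difference at 18 h, -0.62 ± 0.10, was -0.53 and no longer called (limma adjusted p = 0.0505) without the first WT array at 18 h.

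At the other end, Z00063064-1 was far below the pool in every line. It read -3.13 and -3.06 in WT at 18 h and -3.15 and -3.09 at 72 h. On the KO arrays it read -4.28, -4.41, -4.34 and -4.58 at 18 h and -4.31, -4.21, -4.25 and -4.28 at 72 h. Neither WT (-0.03 ± 0.08) nor KO (0.14 ± 0.06) passed the test of time. Its difference of -1.31 at 18 h and -1.14 at 72 h was -0.69 and -0.62 without background correction, called lower in each case. Z00024176-1 read -2.85 and -2.87 in WT at 18 h and -3.21 and -3.30 at 72 h. The KO clones read -4.16, -4.35, -4.41 and -4.72 at 18 h and -4.49, -4.40, -4.80 and -4.64 at 72 h. Its reference signal varied most among the members, by 2.03-fold between the highest and lowest array, where the median member varied by 1.23-fold.

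From 18 h to 72 h in WT, where the rule set no order, 30 of 66 members were called changed by limma, against 8.3% of all probes (4.32% lower and 3.99% higher) and 10.3% of the table's rows. Of these, 27 were lower at 72 h and 3 higher, and the median change of all 66 members was -0.19. The rule used the WT values at both times, so the members' calls are a description. The count was 17 without normalization of the log ratios and 12 with the sample channel alone, all lower in each case. The shares of all probes called were then 0.998% and 1.93%. The 3 that rose in WT were Z00025195-1 (0.39 ± 0.04), Z00006435-1 (0.34 ± 0.05) and Z00009370-1 (0.28 ± 0.05), named after their values were seen.

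Among the falls in WT, that of Z00023748-1 had the lowest adjusted p. It read -1.61 and -1.62 in WT at 18 h and -2.67 and -2.73 at 72 h. Clones 4 and 7 read -2.23, -2.28, -2.29 and -2.41 at 18 h and -3.29, -3.42, -3.46 and -3.44 at 72 h. WT fell by 1.08 ± 0.06 (limma adjusted p = 1.75e-05, both 72 h arrays below both 18 h arrays) and KO by 1.10 ± 0.04, so the 3 lines shifted by about the same amount and the gap between them stayed at -0.69 ± 0.05 and -0.70 ± 0.05. Z00023365-1 followed that course. It read -0.69 and -0.60 in WT at 18 h and -1.43 and -1.40 at 72 h. In KO the values were -1.33, -1.36, -1.38 and -1.44 at 18 h and -2.31, -2.26, -2.07 and -2.07 at 72 h. Its WT fall was 0.78 ± 0.04 (limma adjusted p = 2.32e-05, both 72 h arrays below both at 18 h) and its KO fall 0.80 ± 0.03.

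Z00003330-1 read 0.83 and 0.87 in WT at 18 h and 0.10 and 0.08 at 72 h. The 4 KO arrays read 0.23, 0.28, 0.12 and 0.10 at 18 h and -1.09, -1.01, -0.96 and -0.94 at 72 h. WT fell by 0.77 ± 0.04 (limma adjusted p = 1.95e-05, both 72 h arrays lower) and KO by 1.18 ± 0.03. The change in its knockout difference, -0.42, was -0.19 without background correction and still called, and was not called with the sample channel alone (-0.31, limma adjusted p = 0.0608). Z00019653-1 read -1.31 and -1.30 in WT at 18 h and -2.21 and -2.20 at 72 h. KO values were -1.96, -2.05, -1.93 and -2.01 at 18 h and -3.54, -3.38, -3.66 and -3.77 at 72 h. Its difference moved by -0.70 between the times, and by -0.42 without background correction. The WT fall of 0.90 ± 0.06 (limma adjusted p = 7.83e-05, both 72 h arrays lower) was exceeded by a KO fall of 1.60 ± 0.04. These 4 probes kept an adjusted p under the threshold in WT in all 25 alternative fits, with changes between -1.20 and -0.65.

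The KO level at 18 h can be set beside the level that WT reached at 72 h. In 62 of 66 members the KO mean at 18 h was below the WT mean at 72 h. Among the 27 members that fell with time in WT this held for 23. The exceptions were Z00019653-1, Z00003330-1, Z00023365-1 and Z00023748-1, in which KO at 18 h was above WT at 72 h. This comparison uses the knockout difference that chose the members and is a description only. The rule put KO at least 1.5-fold below WT at 18 h, and the median WT change was -0.19. A high count is therefore built in, and no share over all probes is set beside it.

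In the KO lines, 53 members changed between 18 h and 72 h, 48 lower and 5 higher, where 38% of all probes were called (21.4% lower and 16.6% higher). Of the table's rows, 42.9% were called. The rule used the KO values at both times, so the members' calls are a description. The median change of the members was -0.46 and that of all probes -0.01. Each clone taken alone gave a like count, with 51 members changed in clone 4 and 52 in clone 7, where 29% and 33.4% of all probes were called. The 5 that rose were Z00068002-1, Z00009370-1 (0.40 ± 0.03), Z00006435-1 (0.35 ± 0.03), Z00025572-1 (0.32 ± 0.04) and Z00030630-1 (0.21 ± 0.06). Z00006435-1, the member nearest the threshold, rose in both WT and KO by similar amounts. It read 0.26 and 0.21 in WT at 18 h and 0.60 and 0.55 at 72 h. Both clones together gave -0.37, -0.40, -0.36 and -0.43 at 18 h and -0.11, -0.02, 0.00 and -0.03 at 72 h.

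The knockout difference itself was wider at 72 h in 30 members and narrower in 2, with 34 not called, where 23.9% of all probes were called (13.7% more negative and 10.2% more positive) and 28% of the table's rows. This quantity is the KO change with time minus the WT change. It is built from the contrasts that chose the members, so its calls describe them. In the 30 members the median difference went from -0.82 at 18 h to -1.58 at 72 h, and 29 of them fell with time in KO. In the 34 members not called, the median was -0.81 at 18 h and -0.90 at 72 h. Of the 30, 16 fell in both WT and KO, 12 fell in KO with no call in WT, and the others were Z00025195-1 and Z00030955-1. Of the 34, 10 had no call with time in either genotype, 9 fell in both and 9 fell in KO alone by the calls. For clone 4 alone, whose arrays had their feature extraction on the same day as those of WT, the fit gave 30 members, all wider, against 20% of all probes. Without background correction, both clones together gave 24 members wider and 3 narrower, against 21.7% of all probes. Calls then lost included Z00019839-1 (from -0.33 to -0.06), Z00003154-1 (from -0.41 to -0.09), Z00008822-1 (from -0.44 to -0.20) and Z00030955-1 (from -0.35 to -0.17). Z00070062-1 was then called narrower (from 0.35 to 0.54).

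Z00011249-1 showed the widest change of this kind. It read 1.32 and 1.23 in WT at 18 h and 1.03 and 1.00 at 72 h. On the KO arrays it read 0.68, 0.61, 0.58 and 0.61 at 18 h and -0.92, -1.04, -1.29 and -1.22 at 72 h. At 18 h KO was below WT by a modest margin (-0.65 ± 0.05), and at 72 h it was over 4-fold lower (-2.13 ± 0.05), a change in the difference of -1.48 ± 0.07. WT also fell, by 0.26 ± 0.05 (limma adjusted p = 0.0182, both 72 h arrays below both 18 h arrays).

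Z00017593-1 read 1.14 and 1.19 in WT at 18 h and 0.75 and 0.68 at 72 h. The KO clones read 0.55, 0.43, 0.46 and 0.40 at 18 h and -1.04, -1.16, -1.04 and -1.05 at 72 h. All 4 KO arrays at 72 h were below the reference pool, where all WT arrays were above it, and the difference moved by -1.08 ± 0.07. Z00030359-1 read 0.33 and 0.31 in WT at 18 h and -0.32 and -0.34 at 72 h. Clones 4 and 7 read -0.49, -0.56, -0.66 and -0.67 at 18 h and -1.85, -1.91, -2.16 and -2.06 at 72 h. There it moved by -0.75 ± 0.06, with all 3 lines lower at 72 h than at 18 h. Z00031583-1, which carries both hexamers, read 1.25 and 1.40 in WT at 18 h and 0.44 and 0.63 at 72 h. In KO the values were 0.64, 0.67, 0.32 and 0.41 at 18 h and -1.21, -1.14, -1.27 and -1.24 at 72 h. Here too KO at 72 h lay below the pool and WT above it, with the difference moved by -0.93 ± 0.09. Without background correction that shift was -0.19. Z00031760-1, a row of the same table whose probe pairs with 34 bases of it on the opposite strand, differed from WT by 0.05 ± 0.05 at 18 h and 0.07 ± 0.05 at 72 h.

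Z00025195-1 parted from WT in both directions. It read -0.11 and -0.18 in WT at 18 h and 0.22 and 0.27 at 72 h. The 4 KO arrays read -1.28, -1.36, -1.54 and -1.59 at 18 h and -1.57, -1.59, -1.88 and -1.91 at 72 h. WT rose by 0.39 ± 0.04 (limma adjusted p = 0.00113, both 72 h arrays above both 18 h arrays) and KO fell by 0.29 ± 0.03 (limma adjusted p = 4.69e-05, lower at 72 h in both clones), so the difference moved by -0.68 ± 0.06. The KO minus WT difference itself, -1.30 at 18 h and -1.98 at 72 h, shrank to -0.65 and -0.98 without background correction. It then moved by -0.33, which was still called. The 2 members whose difference narrowed were Z00064108-1 (0.31 ± 0.09) and Z00031526-1 (0.19 ± 0.05). By clone, both narrowings were called in clone 7 only, at 0.61 ± 0.10 and 0.25 ± 0.06. In clone 4 they were 0.005 ± 0.10 and 0.13 ± 0.06 and were not called. In Z00031526-1 neither the WT change (-0.13 ± 0.04) nor the KO change (0.06 ± 0.03) passed the test on its own. The narrowing of Z00064108-1 was not called with the deposited table or the deposited log ratio (limma adjusted p = 0.136 and 0.152). It was also lost without any 1 of the WT arrays, either clone 4 array at 18 h or the second clone 7 array at 18 h (limma adjusted p between 0.0501 and 0.0975), with values from 0.26 to 0.36.

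The clones can be compared with each other without WT. Feature extraction, the step that reads spot intensities from the scanned image, was run on another day for clone 7 than for clone 4. Clone and day therefore cannot be told apart. WT shared the day of clone 4, so clone 7 minus WT also crosses days. Over both times, 17 members differed between clones in limma, 16 lower and 1 higher in clone 7, where 5.59% of all probes were called (2.7% lower and 2.88% higher). With the sample channel alone, without the reference pool, 17 members were again called, but 3 lower and 14 higher in clone 7. Under that scaling 10.4% of all probes were called, 1417 lower and 2936 higher in clone 7. The direction of most of these differences in the members therefore depends on the scaling. Fewer members were called, all lower in clone 7, without the first clone 4 array at 18 h or at 72 h. The same held without the second clone 7 array at 18 h. At 18 h 3 members were called, all lower in clone 7, against 0.136% of all probes (0.0595% lower and 0.0762% higher). At 72 h there were 15, of which 12 were lower and 3 higher, against 4.86% of all probes (2.04% lower and 2.82% higher).

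The largest gap between clones was in Z00064108-1. It read 1.62 and 1.62 in WT at 18 h and 0.40 and 0.43 at 72 h. At 18 h clone 4 read 0.70 and 0.72 and clone 7 -0.47 and -0.53. At 72 h clone 4 read -0.59 and -0.40, and clone 7 -1.18 and -1.02. Clone 7 at 18 h was thus at the level that clone 4 had at 72 h. Clone 7 minus clone 4 was -1.21 ± 0.07 at 18 h and -0.60 ± 0.07 at 72 h (limma adjusted p = 0.00144 and 0.00392, 2 of 2 clone 7 arrays below both clone 4 arrays each time). WT fell between the times by 1.21 ± 0.07, the largest WT fall of any member, and 24 of 25 alternative fits kept that call. The exception was the fit with the cell line as a random block (limma adjusted p = 0.0745 for a WT change of -1.21).

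Z00006029-1 showed a clone gap that widened. It read 2.02 and 2.01 in WT at 18 h and 1.87 and 1.77 at 72 h. At 18 h clone 4 read 1.21 and 1.11 and clone 7 0.69 and 0.62, and at 72 h clone 4 read 0.56 and 0.44 and clone 7 -0.24 and -0.28. Clone 7 minus clone 4 was -0.63 ± 0.04 over both times (limma adjusted p = 0.000238, lower on 4 of 4 clone 7 arrays). These were the 2 members called lower in clone 7 by at least 1.5-fold, and both kept the call and the direction with the sample channel alone.

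Z00055606-1 differed between clones at 72 h. It read 3.94 and 3.77 in WT at 18 h and 4.06 and 3.92 at 72 h. KO values were 3.00, 2.88, 2.84 and 2.89 at 18 h and 3.34, 3.23, 2.59 and 2.44 at 72 h. At 72 h the first pair, from clone 4, was higher than the second, from clone 7, with clone 7 minus clone 4 at -0.77 ± 0.08 (limma adjusted p = 0.00284). The difference at 18 h was -0.07 ± 0.08 and was not called. Z00022844-1, a probe outside the table that shares 25 bases with Z00055606-1, read 1.10 and 1.06 in WT at 18 h and 1.27, 1.33, 1.34 and 1.49 in KO. At 72 h it read 1.26 and 1.27 in WT, 1.39 and 1.25 in clone 4 and 1.54 and 1.57 in clone 7. Clone 4 thus overlapped WT at 72 h. Its KO minus WT difference was 0.27 ± 0.05 at 18 h and 0.17 ± 0.05 at 72 h, although Z00055606-1 was lower.

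Z00022661-1 read 0.89 and 0.98 in clone 4 and 0.47 and 0.56 in clone 7 at 18 h, and 0.19 and 0.15 and -0.08 and -0.13 at 72 h. WT read 1.55, 1.67, 1.66 and 1.76 over the same times, with clone 7 furthest from it. The clone difference was -0.34 ± 0.04 over both times, and for Z00025195-1 it was -0.28 ± 0.03. Neither of these calls, nor that of Z00055606-1, passed the threshold with the sample channel alone. Without background correction the clone difference was -0.21 for Z00022661-1 and still called, and -0.08 for Z00025195-1 and not called (limma adjusted p = 0.277). For Z00064108-1 it was -0.51, against -0.91 with the correction, and called in both. The 3 members higher in clone 7 at 72 h were Z00034272-1 (0.39 ± 0.04), Z00025186-1 (0.26 ± 0.06) and Z00023365-1 (0.21 ± 0.04).

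Z00030955-1 and the members that share runs with it, Z00030887-1 and Z00030689-1, gave closely similar values. Z00030955-1 read 1.19 and 1.03 in WT at 18 h and 1.19 and 1.44 at 72 h. Both clones together gave 0.49, 0.52, 0.50 and 0.46 at 18 h and 0.48, 0.32, 0.32 and 0.28 at 72 h. The 8 KO arrays all lay below the lowest WT array. Z00030887-1 read 1.19 and 0.86 in WT at 18 h and 1.05 and 1.20 at 72 h. On the KO arrays it read 0.34, 0.38, 0.37 and 0.39 at 18 h and 0.29, 0.25, 0.26 and 0.28 at 72 h. Its WT arrays varied more than its KO arrays. Z00030689-1 read 1.38 and 1.06 in WT at 18 h and 1.42 and 1.60 at 72 h. The KO clones read 0.34, 0.37, 0.20 and 0.38 at 18 h and 0.34, 0.22, 0.32 and 0.34 at 72 h. In each, the KO clones overlapped each other and lay below WT, and neither the WT nor the KO change with time passed the test.

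Probes outside the table that share sequence with this family were lower to differing degrees. Z00031023-1, with 26 bases in common with both Z00030955-1 and Z00030887-1, was at -0.75 ± 0.09 at 18 h and -1.05 ± 0.09 at 72 h. Z00033709-1, with 30 bases in common with Z00030887-1, was at -0.49 ± 0.07 and -0.79 ± 0.07. Z00032973-1 shares 22 bases with Z00030955-1 and 17 with Z00030689-1. It stood at -0.10 ± 0.04 and -0.06 ± 0.04, close to no difference.

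The rows outside the members whose values followed the members' mean most closely over the 12 arrays had differences too small to be chosen. They were Z00000976-1 (Pearson r 0.992), Z00015231-1 (0.991), Z00031501-1 (0.99), Z00044437-1 (0.989) and Z00012615-1 (0.988). These correlations are a description over arrays that fall into 6 groups. In Z00000976-1 the differences from WT were -0.24 in clone 4 and -0.23 in clone 7 at 18 h, and -0.31 and -0.32 at 72 h. In Z00044437-1 they were -0.41, -0.585, -0.71 and -0.73, so that the probe missed the threshold in clone 4 at 18 h.

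Apart from Z00026083-1, most members were above the level of the negative control spots on every array. The median sample intensity per array was 513.1 to 653, and 89.9% to 97.3% of probes were above the 95th percentile of the negative controls. In WT all 66 members were above that level on both arrays at each time, and in KO 65 were above it on all 4 arrays at 18 h and 62 at 72 h. No member was saturated or marked as not well above background, and 1 spot carried an outlier flag (Z00054870-1 on the second WT array at 18 h), so its WT value at that time rests on 1 array. Replicate arrays correlated at 0.99 to 0.993 over all probes except for clone 7 at 72 h (0.952), and the number of arrays limits the precision of every value here.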

How the data were processed

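Per the labels, sample RNA (Cy3) and a reference pool (Cy5) were hybridised to 12 arrays. The deposited scanner files hold spot intensity values from Agilent Feature Extraction A.7.5.1, per the file headers, together with a deposited log10 ratio. The table deposited with the series follows a log10 scale: across probes its columns correlated at 0.9919 to 0.9987 with log10 green minus log10 red plus the mean log10 red, and at 0.9823 to 0.9966 with green alone. Column medians were 2.987 to 3.002. No source used here says how its rows were chosen or whether values were adjusted further.

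The table was multiplied by 3.3219 to reach log2, and its row numbers were matched to scanner spots to name probes. Scanner mean signals and local backgrounds were corrected with normexp (offset 50) and loess in limma 3.58.1 under R 4.3.3, flagged spots left out, and the sign turned so that higher means more sample RNA. A mean per group was fitted over 12 arrays (residual degrees of freedom 6, prior 2.98), with Benjamini-Hochberg adjustment over all probes, and the fit was tested on simulated data.

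The members and lists were chosen with earlier results of these data known. Values on every array are given for the 10 members with the lowest mean difference, the 3 furthest above and below the pool in WT, and up to 5 members each by lowest adjusted p for WT time, for the change in the knockout difference and for the clone difference, and for members that share sequence. The 3 members nearest inside the threshold, the 3 rows nearest outside it and the 5 rows most like the members' mean are also named. Alternatives covered background correction, normalization, channel, deposited values, filters, thresholds, blocks and arrays left out. Promoter and miRNA sequences came from RefSeq. Gene lists and cell type markers were not analysed here, because probes could not be named. The values of 1 member that the naming rule picked are not reported here.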

Additional observations from a re-analysis of the deposited data

Results flagged for a closer look

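The knockout difference changed between 18 h and 72 h in 32 members, by the limma test of that change, where 23.9% of all probes were called. This change is built from the contrasts that chose the members, so its calls are a description. Members among those with the lowest adjusted p were Z00011249-1 (-1.48), Z00017593-1 (-1.08), Z00030359-1 (-0.75) and Z00025195-1 (-0.68), each on the log2 scale and wider at 72 h. Without background correction 27 members were called, 24 wider and 3 narrower, against 21.7% of all probes. The change of Z00025195-1 was then -0.33.

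The clones differed over both times in 17 members, by the limma test of clone 7 minus clone 4, where 5.59% of all probes were called. Of these, 16 were lower and 1 higher in clone 7, but with the sample channel alone 17 were called with 3 lower and 14 higher. In that setting 10.4% of all probes were called. The 5 with the lowest adjusted p were Z00064108-1 (-0.91), Z00006029-1 (-0.63), Z00055606-1 (-0.42), Z00022661-1 (-0.34) and Z00025195-1 (-0.28). With the sample channel alone, Z00055606-1, Z00022661-1 and Z00025195-1 were not called (-0.33, -0.14 and -0.08), and Z00025195-1 was not called without background correction either. Clone and feature extraction day cannot be told apart in this contrast.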

How the results depend on the processing

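The counts of members lower in KO stayed between 63 and 66 at 18 h and between 65 and 66 at 72 h under the alternatives, and between 64 and 66 (18 h) and at 66 (72 h) with an array left out, as the choice of members favours. Members changed with time in WT numbered 30, and 17 without normalization (0.998% of all probes) and 12 with the sample channel alone (1.93%). With a fold of at least 1.5 there were 8, and the count also moved when an array was left out. For KO time the count of 53 became 29 with the fold limit, and for the change in the knockout difference 32 became 20. Both also moved with an array left out. The clone count of 17 became 2 without normalization (0.274% of all probes). It was 6 at an adjusted p below 0.01, 2 with the fold limit and 9 to 17 with an array left out. The rule found 16 members at a threshold of -1 and 99 at -0.5, and 62 to 74 with an array left out. Applied to the scanner values it found 66 rows of the table, 63 of them members. The cause of these shifts was not tested, other than that a stricter limit calls fewer. Shares of all probes are not set beside the counts under the fold limit or the stricter adjusted p. Nothing about the members is read from those counts. Without normalization the median of all probes moved to -0.20 for KO minus WT at 18 h and to 0.10 for the change in the knockout difference.

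Replicate numbers showed no pairing common to all groups, with a median correlation of deviations of 0.00229 over 15 pairs of groups. The range was -0.156 to 0.364, so a shared deviation in single pairs of groups remains possible. The replicate block gave 66, 66, 30, 55, 31 and 17 members for the 18 h, 72 h, WT time, KO time, change in difference and clone contrasts. For single members, 6 alternatives fitted on all arrays gave 510 values, of which 499 kept direction and call, 10 lost the call, 1 gained it and 0 reversed. The 12 fits with an array left out gave 1020 values, of which 1008 kept both, 10 lost the call, 2 gained it and 0 reversed. Sizes moved most without background correction, as given with the members. With 2 arrays a group, array number limits precision, and Z00026083-1 was near background in KO.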
